A study of Mus musculus with 32 samples.

Results

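The comparison described here set 4 mouse livers taken 20 h after partial hepatectomy against 4 livers taken at 0 h, all from mice in which the gene of ribosomal protein S6 had been conditionally deleted. These were the 8 livers, of 32 in the series, whose titles give mx-cre PLUS and a time of 20 h or 0 h. All came from male C57BL/6 mice aged 3 months and homozygous for a floxed RPS6 allele. Those with the mx-cre transgene are called Cre plus, and the 8 floxed livers without it at the same times, called Cre minus, are used only to show where the Cre plus change differed. The Mx promoter that drives Cre answers to interferon, and polyinosinic-polycytidylic acid, a double-stranded RNA mimic that raises interferon, was injected to start the deletion. The sources used here do not give the time from injection to hepatectomy, nor say if mice without Cre received it. No sham operation is among the labels, so removal of tissue cannot be told apart from anaesthesia, surgery or elapsed time. Nothing in the labels ties each sample to a separate mouse, and the p-values thus cover only the spread between samples.

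Partial hepatectomy removes part of the liver and makes the resting hepatocytes of the remnant re-enter the cell cycle. The first hours bring immediate early and acute phase genes, a shift of hepatic metabolism and lipid storage, and larger ribosome production, and in mice they precede the wave of DNA synthesis. Ribosomal protein S6 is a component of the small ribosomal subunit and a target of the S6 kinases, and cells that lack it cannot complete new small subunits. The comparison therefore addresses which parts of the early response to hepatectomy take place in a liver with little new S6.

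RNA levels were read on a 1-colour Affymetrix oligonucleotide array as log2 values, in which a difference of 1 is a 2-fold change. Of the 12422 probe sets other than controls, 9249 lay above the 30th percentile of their array on at least 3 arrays and were tested with limma, with genotype and time groups and batch as terms. In both Cre plus groups livers A and B were in the batch labelled PHX3 and livers C and D in PHX2. The letters name livers within a group, and the labels do not say whether they pair livers between times. The 0 h livers correlated with one another at r of 0.988 to 0.992. At 20 h livers A and B correlated at 0.990, but liver C correlated with A, B and D at 0.956 to 0.960. The 20 h livers were thus less alike than the 0 h livers, and several results below rest on A and B more than on C and D.

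The Rps6 probe set stayed at low values in every liver of the comparison. It read 7.27, 6.97, 6.76 and 6.24 in 0 h livers A to D and 7.69, 7.32, 6.95 and 6.96 in 20 h livers A to D. The 2 groups overlapped, and the difference of 0.42 (SE 0.15) did not pass (limma adjusted p = 0.0843). In Cre minus livers the means were 11.11 at 0 h and 11.57 at 20 h. The probe set also matches the pseudogene Rps6-ps4, and the sources used here do not place it relative to the deleted exons.

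At 20 h limma called 839 of 9249 probe sets, 9.07% of those tested, with a call set at an adjusted p (Benjamini-Hochberg) under 0.05. Of these, 328 were higher (3.55%) and 511 were lower (5.52%), and 110 and 99 of them differed by 2-fold or more. The 15 largest increases included the metallothioneins Mt1 and Mt2, the lipid droplet gene Cidec, Lcn2, Gadd45g and Il1r1. The 15 largest decreases included steroid dehydrogenases, Keg1, enzymes of cholesterol synthesis, Tsc22d1, Anp32a, Car5a and Saa3. All 839 had the same sign within PHX2 and within PHX3, and 705 of them did not overlap between the groups, against 16.8% of all probe sets tested. The calls were chosen on these same livers, which favours both results, so neither is separate support. Most calls were lost when 20 h liver A or B was left out. Without 20 h liver A 264 of the 839 were still called, without B 360, without C 757 and without D 754. All 839 kept their sign in each case, which the choice of the calls favours in the same way. Without single 0 h livers between 482 and 541 were still called. With only 2 livers a group, PHX3 alone kept 593 and PHX2 alone kept 1.

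**Figure D1:**
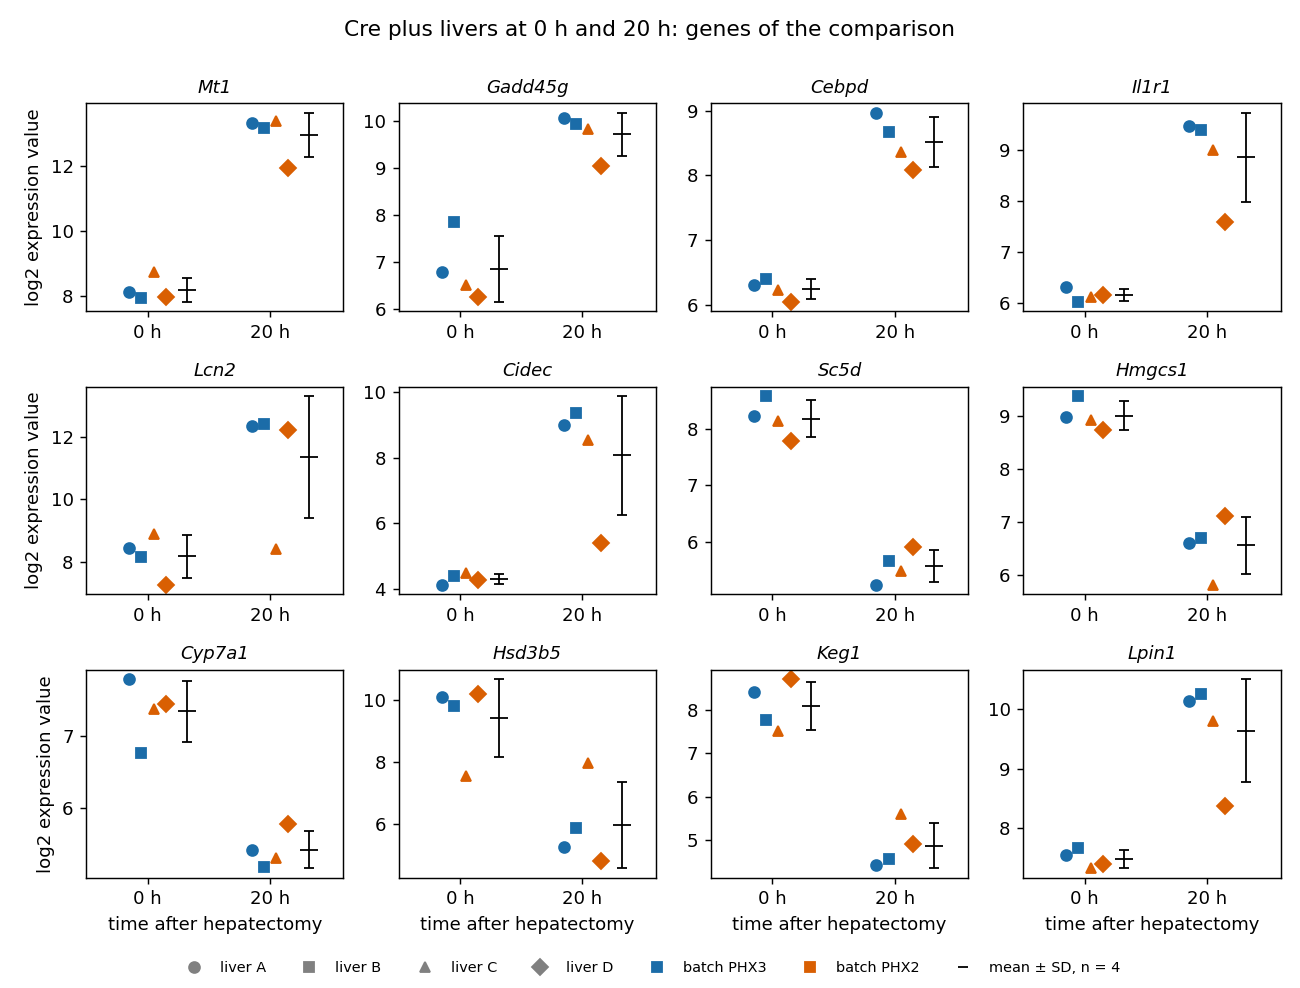
Log2 expression values (vertical axis) of 12 genes in single Cre plus livers at 0 h and 20 h (horizontal axis), with symbols for livers A to D, colours for batch, and the mean with SD of 4 livers in black. Mt1 rises from about 8 to between 11.94 and 13.38, while Lcn2 in 20 h liver C (8.42) and Cidec in 20 h liver D (5.40) stay nearest to the 0 h livers.

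The highest increases were those of the metallothioneins, small proteins that bind zinc and copper. Mt2 read 7.84, 7.22, 8.28 and 7.82 at 0 h and 13.16, 12.99, 13.19 and 11.53 at 20 h. Mt1 read 8.13, 7.93, 8.72 and 7.95 at 0 h and 13.31, 13.17, 13.38 and 11.94 at 20 h. Both sets of livers lay far apart, with 20 h liver D the lowest of its group for each gene. The rise was 4.93 for Mt2 (SE 0.44, 30.4-fold, limma adjusted p = 1.52e-07) and 4.77 for Mt1 (SE 0.50, 27.2-fold, adjusted p = 1.90e-06). In Cre minus livers Mt2 rose by 3.82 and Mt1 by 3.60, and the differences from the Cre plus rise, 1.11 and 1.16, had unadjusted limma p of 0.0849 and 0.115. Both calls held without any single liver.

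Receptors of inflammatory signals and C/EBP transcription factors were among the called genes. Il1r1, the signalling receptor of interleukin 1, read 6.31, 6.03, 6.12 and 6.16 at 0 h and 9.46, 9.38, 8.99 and 7.59 at 20 h, a rise of 2.70 (SE 0.49, adjusted p = 0.00156). Cd14, the lipopolysaccharide co-receptor, rose by 2.14 (SE 0.58, adjusted p = 0.0203). Both receptors were lowest in 20 h liver D, yet still above every 0 h liver. Cebpd, a transcription factor of acute phase genes, read 6.31, 6.41, 6.23 and 6.05 at 0 h and 8.97, 8.67, 8.36 and 8.08 at 20 h. It rose by 2.27 (SE 0.26, adjusted p = 5.86e-06), and its relative Cebpb by 1.46 (SE 0.20, adjusted p = 8.34e-05). Cebpa, the related factor of resting hepatocytes, moved the other way. It read 11.59, 11.33, 11.28 and 11.30 at 0 h and 9.78, 10.15, 10.51 and 10.05 at 20 h, and fell by 1.26 (SE 0.29, adjusted p = 0.00810; without 20 h liver A, adjusted p = 0.0508).

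The list of cytokine and growth factor signalling genes had 26 tested members, of which 5 rose and 2 fell, with a median difference of 0.09. Besides Il1r1, Osmr, the oncostatin M receptor, rose by 1.18, and Tnfrsf1b and Tnfrsf1a, the receptors of tumour necrosis factor, by 1.03 and 0.84. Socs3, a feedback inhibitor of cytokine signalling, rose by 0.99. The number called higher was 3 when 20 h liver A or B was left out. Inhbc, which encodes an activin subunit made by hepatocytes, fell by 0.86. Notch1, a receptor of cell fate signalling, fell by 0.79. For comparison, of 6786 genes, each represented by 1 probe set of highest mean level, 3.42% rose and 6.34% fell, with a median of -0.02.

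Among 36 immediate early and growth arrest genes 7 rose (19.4%, against 3.42% of all genes) and 1 fell, with a median of 0.33. Gadd45g, a growth arrest and DNA damage inducible gene, read 6.78, 7.86, 6.52 and 6.26 at 0 h and 10.06, 9.93, 9.82 and 9.04 at 20 h, and rose by 2.86 (SE 0.41, 7.26-fold, adjusted p = 1.17e-04). Ifrd1 rose by 1.56 and Odc1, which starts polyamine synthesis, by 0.93. Myc, a driver of growth and ribosome production, read 3.35, 3.998, 3.48 and 3.53 at 0 h and 4.57, 4.27, 6.63 and 4.41 at 20 h. It was far higher in 20 h liver C than in the others, and its rise of 1.38 (SE 0.37, adjusted p = 0.0205) had an adjusted p of 0.0736 without that liver. Liver C stood apart for the whole list: the median of its members lay 0.92 above the 0 h mean in liver C, against 0.14 to 0.21 in livers A, B and D. Pim1 fell by 0.41, and Egr1, an early growth response factor, had a difference of -0.97 that did not pass (adjusted p = 0.157).

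Acute phase proteins are secreted by hepatocytes during inflammation, and 7 of 23 rose (30.4%, against 3.42% of all genes) while 1 fell. Lcn2, which binds bacterial siderophores, read 8.43, 8.14, 8.88 and 7.25 at 0 h and 12.35, 12.41, 8.42 and 12.24 at 20 h. It rose by 3.18 (SE 0.59, 9.05-fold, adjusted p = 0.00187), although 20 h liver C lay within the range of the 0 h livers. The same liver was lowest for Serpina3n, a protease inhibitor, at 11.23 against 12.51 to 12.94 in the other 20 h livers, and for serum amyloid A2 (Saa2), at 11.41 against 13.47 to 13.83. Serpina3n rose by 1.02 (SE 0.27) and Saa2 by 1.20 (SE 0.36, adjusted p = 0.0348). The probe set of Saa2 carries a suffix for gene families and may also read its close copies. The fibrinogen genes Fgb and Fgg rose by 0.69 and 0.66, and Orm1, orosomucoid, by 0.55.

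Saa3, the serum amyloid made chiefly by macrophages, was the acute phase gene that fell. It read 12.04, 11.80, 11.95 and 10.99 at 0 h and 9.11, 9.64, 10.17 and 9.81 at 20 h, with no overlap. The fall was 2.01 on the log2 scale (4.04-fold, adjusted p = 0.0249). Without 20 h liver A or B 3 members of the list were called higher and Saa3 was not called lower. Without C 8 were called higher, and without single other livers 4 or 5. The list median was above the 0 h mean in 20 h livers A, B and D (0.32, 0.40 and 0.40) and below it in liver C (-0.12).

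Windows before the starts of acute phase genes often held a core of C/EBP binding sites, the letters TTGC, 2 unspecified bases and AA, searched on both strands. They were present in 10 of 21 windows of 250 bases, from the 18 list members found in the RefSeq promoter table (GRCm38.p6), or 47.6%. The share was 9.56% over all 32851 RefSeq windows, 12.9% for all genes called higher and 9.86% for all called lower. It was 28.6% for plasma proteins and apolipoproteins, of which 8 fell and 0 rose in limma. The core is thus not particular to the acute phase genes or to genes that rose. The windows of 2 genes that rose are shown with the match in capitals, 80 bases before the start in Fgb and 183 in Saa2. A match describes these letters only and no binding was measured.
Fgb, chr3:83049864-83050013, minus strand: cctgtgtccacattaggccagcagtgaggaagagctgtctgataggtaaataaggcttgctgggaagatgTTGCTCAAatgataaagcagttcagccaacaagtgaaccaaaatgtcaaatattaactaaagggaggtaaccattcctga
Saa2, chr7:46751633-46751832, plus strand: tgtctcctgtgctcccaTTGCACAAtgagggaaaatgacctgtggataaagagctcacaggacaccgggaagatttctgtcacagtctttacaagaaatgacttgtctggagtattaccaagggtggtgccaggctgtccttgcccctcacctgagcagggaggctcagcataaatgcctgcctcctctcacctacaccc

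Of 17 lipid droplet and lipoprotein genes 3 rose (17.6%, against 3.42% of all genes), 2 fell and 12 were not called. Cidec, a lipid droplet protein that enlarges droplets, read 4.12, 4.38, 4.47 and 4.29 at 0 h and 8.99, 9.35, 8.52 and 5.40 at 20 h. Its rise of 3.75 (SE 1.03, 13.5-fold, adjusted p = 0.0224) had an adjusted p of 0.109 without 20 h liver A. Plin2, which coats droplets, read 11.01, 11.21, 10.90 and 11.54 at 0 h and 13.50, 13.45, 12.98 and 11.74 at 20 h, and rose by 1.75 (SE 0.40, adjusted p = 0.00750). For both genes liver D was the lowest 20 h liver and the nearest to the 0 h range, without entering it. Apoa4, an apolipoprotein that rises with hepatic lipid, rose by 1.63. Cideb and Lipe, which act in lipoprotein lipidation and lipolysis, fell by 0.82 and 0.42. Leaving out 20 h liver A left 1 member called higher and none lower.

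Lpin1, a phosphatidate phosphatase and co-regulator of fatty acid oxidation genes, read 7.54, 7.67, 7.33 and 7.39 at 0 h and 10.14, 10.25, 9.80 and 8.38 at 20 h. It rose by 2.16 (SE 0.53, 4.47-fold, adjusted p = 0.0119; without 20 h liver A, adjusted p = 0.0702). Of 30 genes of fatty acid oxidation and PPARA targets 4 rose (13.3%, against 3.42% of all genes) and 1 fell (3.33%, against 6.34%). Angptl4, an inhibitor of lipoprotein lipase, rose by 1.08, and Eci2, an enoyl-CoA isomerase, by 1.18. Acadl, an acyl-CoA dehydrogenase, rose by 0.82, and Slc22a5, a carnitine transporter, by 1.13, while Hadh fell by 0.66. The count of 4 was 2 without 20 h liver A and 8 without D. The list median split by batch: it was 0.50 and 0.35 above the 0 h mean in livers A and B of PHX3, and -0.17 and -0.25 in livers C and D of PHX2. Pex11a, a peroxisome division factor, read 11.004 and 10.45 in A and B and 8.78 and 7.91 in C and D, with a difference of 1.27 that did not pass (adjusted p = 0.108). Batch and the difference between these livers cannot be told apart.

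**Figure D2:**
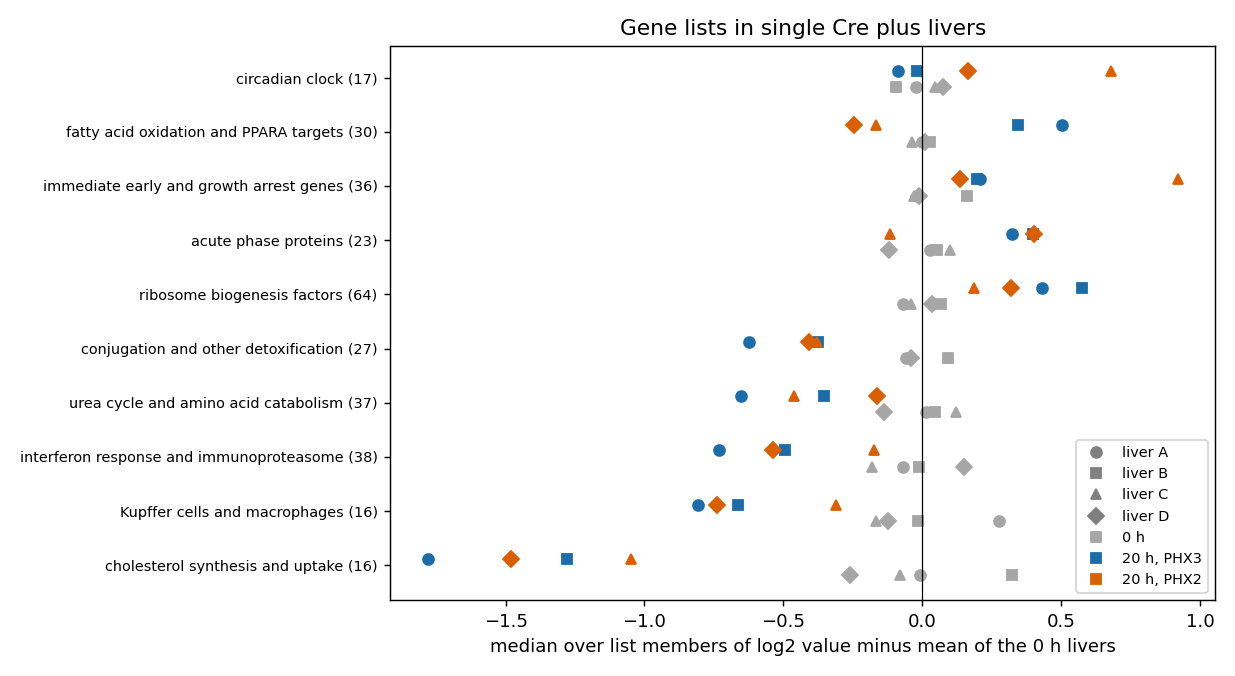
Median over the members of each list (number tested in brackets) of the log2 value minus the mean of the 0 h livers (horizontal axis) for each of the 8 Cre plus livers, 0 h in grey and 20 h in colour by batch. Cholesterol synthesis lies between -1.78 and -1.05 in all 20 h livers, while the fatty acid oxidation list is above 0 in the PHX3 livers and below 0 in the PHX2 livers.

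Cholesterol synthesis held the largest share of lower genes among the lists with 8 or more genes tested. Of its 16 tested genes 11 fell and none rose in limma, against 5.52% of all probe sets, and 14 of 16 did not overlap between the groups, against 9.74%. The median difference was -1.39, with -1.11 within PHX2 and -1.67 within PHX3. At an unadjusted p under 0.05 the counts were 12 lower and 0 higher. Hmgcs1, which makes the precursor of mevalonate, read 8.98, 9.38, 8.93 and 8.74 at 0 h and 6.60, 6.70, 5.81 and 7.12 at 20 h, a fall of 2.45 (SE 0.60, 5.46-fold, adjusted p = 0.0106). Idi1, which isomerises the isoprenoid unit, read 10.49, 10.70, 9.996 and 10.51 at 0 h and 8.04, 8.08, 7.81 and 8.25 at 20 h, a fall of 2.38 (SE 0.61, adjusted p = 0.0143). The lowest 0 h liver exceeded the highest 20 h liver for both enzymes by more than 1.5.

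The early enzymes Mvk and Mvd fell by 0.69 and 1.29, and Fdps and Fdft1, which build farnesyl diphosphate and squalene, by 1.57 and 1.63. Lss, which closes the sterol ring, fell by 0.92. Among the later steps, Msmo1, a sterol demethylase, read 8.999, 8.90, 8.93 and 8.83 at 0 h and 6.70, 6.75, 7.28 and 7.23 at 20 h, and fell by 1.92 (SE 0.59, adjusted p = 0.0373). Nsdhl fell by 1.48 and Dhcr7, which makes cholesterol in its last step, by 1.91. The largest fall of the pathway was in Sc5d, a sterol desaturase. It read 8.23, 8.58, 8.14 and 7.78 at 0 h and 5.23, 5.66, 5.48 and 5.9 at 20 h, and fell by 2.61 (SE 0.46, 6.12-fold, adjusted p = 0.00104). A second Sc5d probe set fell 5.15-fold.

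The 5 genes that did not pass were Sqle (difference -0.84), Cyp51 (-1.20), Tm7sf2 (-0.33), Ebp (-0.37) and Hsd17b7 (0.13), and the first 3 did not overlap between the groups. Mid1ip1, an activator of acetyl-CoA carboxylase and so of fatty acid rather than sterol synthesis, fell by 1.82 (SE 0.44), and its second probe set by 0.77. The count of called sterol genes was 4 without 20 h liver A, 6 without B, 11 without C and 9 without D, and 7 or 8 without single 0 h livers. The Sc5d and Dhcr7 calls held in each of these cases.

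**Figure D3:**
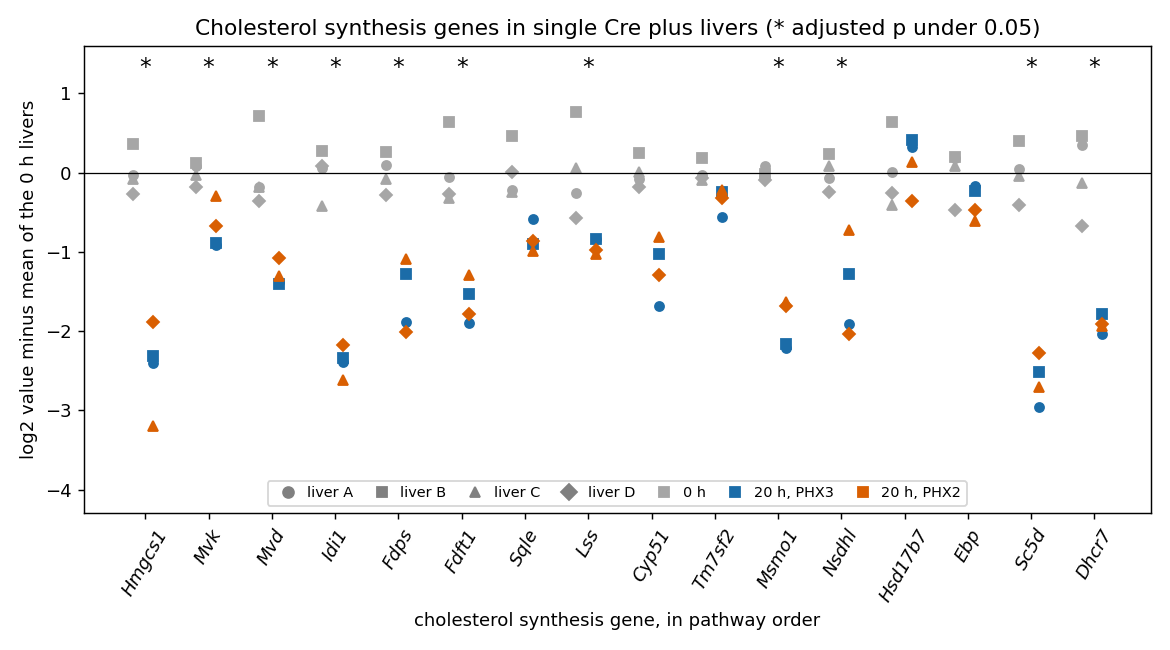
Log2 value minus the mean of the 0 h Cre plus livers (vertical axis) for 16 cholesterol synthesis genes in pathway order (horizontal axis), each point 1 liver, 0 h in grey and 20 h in colour by batch, with an asterisk for adjusted p under 0.05. All 20 h points of Idi1, Sc5d and Dhcr7 lie below all their 0 h points, while those of Hsd17b7 mix with them.

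The promoter windows of 4 sterol genes that fell are shown for a short sequence that most windows of the list hold. CCAAT or its reverse ATTGG, the letters read by the factor NF-Y that acts with SREBP at sterol genes, occurred in 13 of 15 windows of 250 bases (86.7%), from the 13 list members in the RefSeq table. The share was 33.8% over all windows, but 87.5% for the MHC class II list and 77.4% for the mitosis list, in which limma called no gene (2 and 1 at an unadjusted p under 0.05), so it is not particular to the sterol genes. The stricter sterol element CACCCCAC occurred in 1 of the 15 windows, that of Hmgcs1, against 2.58% of all windows. In the windows below CCAAT matches on either strand are in capitals. They start 237, 176 and 45 bases before the start of Hmgcs1, 45 and 14 before that of Idi1, 24 before that of Sc5d, and 160, 96 and 55 before that of Msmo1.
Hmgcs1, chr13:119690101-119690350, plus strand: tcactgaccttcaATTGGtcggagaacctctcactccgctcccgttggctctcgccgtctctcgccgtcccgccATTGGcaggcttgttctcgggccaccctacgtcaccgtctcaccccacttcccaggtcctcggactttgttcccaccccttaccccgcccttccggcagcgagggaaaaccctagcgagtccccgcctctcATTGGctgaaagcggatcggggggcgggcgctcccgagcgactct
Idi1, chr13:8885506-8885605, plus strand: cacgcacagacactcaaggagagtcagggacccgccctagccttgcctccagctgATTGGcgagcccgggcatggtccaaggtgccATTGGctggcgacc
Sc5d, chr9:42264301-42264400, minus strand: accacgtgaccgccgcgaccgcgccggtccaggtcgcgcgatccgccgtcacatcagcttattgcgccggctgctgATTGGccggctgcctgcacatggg
Msmo1, chr8:64733579-64733758, minus strand: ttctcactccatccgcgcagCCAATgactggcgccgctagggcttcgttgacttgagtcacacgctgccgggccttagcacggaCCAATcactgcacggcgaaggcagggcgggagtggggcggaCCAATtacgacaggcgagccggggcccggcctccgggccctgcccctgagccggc

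Cyp7a1, the rate-limiting enzyme of bile acid synthesis, which consumes cholesterol, read 7.80, 6.76, 7.39 and 7.45 at 0 h and 5.41, 5.17, 5.29 and 5.78 at 20 h, and fell by 1.94 (SE 0.54, 3.83-fold, adjusted p = 0.0238). The groups did not overlap, but the call was lost in 5 of 8 omissions of single livers, with the highest adjusted p, 0.0751, without 20 h liver B. Of 17 genes of bile acid synthesis, transport and sensing 4 fell (23.5%, against 6.34% of all genes) and none rose in limma. At an unadjusted limma p under 0.05, 8 were lower. Hsd3b7, a later enzyme of the pathway, fell by 1.03. Slc10a1, the bile acid importer of hepatocytes, read 11.54, 11.46, 11.72 and 11.21 at 0 h and 10.26, 10.75, 10.93 and 10.69 at 20 h, and fell by 0.82 (SE 0.17). Nr5a2, a nuclear receptor that acts at Cyp7a1, fell by 0.82. The count of 4 was 2 without 20 h liver A.

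The 3 beta-hydroxysteroid dehydrogenase genes named here were among the 15 largest decreases. Hsd3b5, which is high in male liver, read 10.10, 9.81, 7.54 and 10.22 at 0 h and 5.24, 5.86, 7.95 and 4.77 at 20 h. It fell by 3.46 (SE 0.77, 11-fold, adjusted p = 0.00643), though livers C of both times overlapped. Hsd3b2 fell by 3.02, and Hsd3b6 fell by 2.28, both without overlap. The 3 genes are close copies, so their probe sets may share signal. Keg1, a glycine N-acyltransferase-like gene, read 8.40, 7.75, 7.51 and 8.70 at 0 h and 4.42, 4.56, 5.59 and 4.91 at 20 h, and fell by 3.22 (SE 0.45, 9.31-fold, adjusted p = 9.67e-05). Car5a, the mitochondrial carbonic anhydrase that feeds ureagenesis, fell by 2.14. Tsc22d1, a transcription regulator, fell by 2.3. Anp32a, a nuclear phosphoprotein, fell by 2.15 in 1 probe set and fell by 1.0 in another.

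Other functions of mature hepatocytes fell in part. Of 37 genes of the urea cycle and amino acid catabolism 12 fell (32.4%, against 6.34% of all genes) and 3 rose (8.11%, against 3.42%). The median was -0.49. Hal, which starts histidine breakdown, fell by 1.252, Bhmt, which remethylates homocysteine, by 1.15, and Pcbd1 and Qdpr, which recycle the pterin cofactor of phenylalanine hydroxylation, by 1.07 and 0.88. The risers were Tat, tyrosine aminotransferase (0.95), Aass, of lysine breakdown (1.14), and Arg1, arginase (0.50). Tat read 12.05, 12.05, 11.90 and 11.46 at 0 h and 12.79, 12.64, 13.05 and 12.79 at 20 h, without overlap (SE 0.16, adjusted p = 9.61e-04). The count of 12 fell to 2 without 20 h liver A, 4 without B, and 4 to 8 without single 0 h livers, and it was 12 without C and 14 without D.

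Of 27 conjugation and detoxification genes 7 fell (25.9%, against 6.34% of all genes). Fmo1, a flavin monooxygenase (-1.53), and Gstt1, a glutathione transferase (-0.81), led them. None of these 7 calls was kept without 20 h liver A. Of 27 cytochrome P450 genes 3 fell (11.1%, against 6.34% of all genes), among them Cyp2f2 (-0.98). None of the 3 was called without 20 h liver A. Cyp2b10, the classic target of the receptor CAR, rose by 1.97 (SE 0.50, adjusted p = 0.0134), with 7.45, 9.13, 9.61 and 7.86 at 0 h and 11.05, 10.60, 9.10 and 11.16 at 20 h. Its groups overlapped through 20 h liver C.

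Plasma proteins and apolipoproteins were lower in 42 of 46 members, and 8 fell (17.4%, against 6.34% of all genes). Serpind1, heparin cofactor, fell by 1.44, Serpinf2, which inhibits plasmin, by 0.78, and Serpinc1, antithrombin, by 0.41. The count of 8 was 1 without 20 h liver A, 3 without B, and without single 0 h livers 4 to 6. Albumin itself (Alb) lay between 13.65 and 13.78 in all 8 livers, near the top of the scale, with a difference of -0.04 (adjusted p = 0.799). Among 62 respiratory chain genes 4 fell (6.45%, close to the 6.34% of all genes), by 0.27 to 0.38, none of them called without 20 h liver A or 0 h liver D.

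Of 9 periportal markers 4 fell (44.4%, against 6.34% of all genes). Of 10 pericentral markers none was called in limma, with 2 lower at an unadjusted p under 0.05. Pigr, the immunoglobulin transporter, read 12.21, 12.31, 12.37 and 12.47 at 0 h and 10.73, 10.87, 11.46 and 11.15 at 20 h, and fell by 1.28 (SE 0.20, adjusted p = 2.64e-04) in every omission of a single liver. Ctsc, a lysosomal protease, fell by 0.81. Without 20 h liver A or 0 h liver B 1 periportal marker was called, and without 20 h liver B or 0 h liver A or C 2. In bulk tissue, fewer cells of a kind and less RNA per cell cannot be told apart.

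Ribosome biogenesis factors rose as a broad group despite the deletion. Of 64 tested, 24 rose (37.5%, against 3.42% of all genes) and none fell in limma. At an unadjusted limma p under 0.05, 38 were higher and 0 lower. The difference was positive in 58, and the median was 0.39. Rrs1, an assembly factor of the large subunit, read 6.02, 6.42, 6.68 and 6.09 at 0 h and 7.40, 7.75, 7.42 and 7.37 at 20 h, and rose by 1.18 (SE 0.12, 2.26-fold, adjusted p = 8.12e-07). Gnl3, nucleostemin, read 5.03, 5.22, 5.32 and 5.87 at 0 h and 6.78, 7.15, 6.97 and 6.51 at 20 h, and rose by 1.5 (SE 0.22, adjusted p = 2.17e-04). Both genes were above their 0 h range in all 4 livers.

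The nucleolar proteins Ncl and Npm1 rose by 1.11 and 1.07, and the box C/D ribonucleoprotein genes Nop56 and Nop58 by 1.32 and 1.36. Nhp2 and Gar1 of the box H/ACA particles, which guide pseudouridylation, rose by 1.14 and 0.78. The risers included factors of the small subunit, whose completion needs S6: Tsr1 rose by 1.46 (SE 0.26, adjusted p = 0.00112), Utp4 by 1.14, Wdr43 by 0.68 and Mphosph10 by 0.33. Large subunit factors rose alongside, with Eif6 at 1.26, Nop2 at 0.65 and Brix1 at 0.55. Polr1d, a subunit of RNA polymerases I and III, rose by 0.77. The count of 24 was 11 without 20 h liver A or B, 28 without C, 25 without D, and 15 to 19 without single 0 h livers.

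Ribosomal proteins and translation factors had smaller shares of called genes, a difference that was not tested. Of 29 ribosomal protein genes other than Rps6 2 rose (6.9%, against 3.42% of all genes), Rplp0 by 0.33 and Rpl10a by 0.43. The median was 0.13. Of 39 translation factors 7 rose (17.9%, against 3.42% of all genes) and 1 fell. Etf1, the termination factor, rose by 0.98 (SE 0.17, adjusted p = 9.66e-04), Eif3j1 by 0.92 and Eif5 by 0.91, while Eif4a1, the cap-complex helicase, rose by 0.52. Eif4ebp2, a repressor of cap-dependent initiation, fell by 1.33 (SE 0.25, adjusted p = 0.00233), with 9.77, 9.79, 9.89 and 9.87 at 0 h and 7.97, 8.33, 8.87 and 8.81 at 20 h. Its other probe sets fell by 0.31 and 0.40. Without 20 h liver A or B, or 0 h liver C or D, 3 translation factors were called higher, against 13 without 20 h liver C. No ribosomal protein gene was called without 20 h liver A or B or 0 h liver C.

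Of 27 ATF4 targets, genes of the amino acid and integrated stress response, 3 rose (11.1%, against 3.42% of all genes): Slc3a2, a subunit of amino acid transporters (1.32), Asns, asparagine synthetase (0.61), and Cebpb, which is also in the immediate early list. Cars fell by 0.27. Leaving out 20 h liver A or B left 1 ATF4 target called higher. Of 28 NRF2 targets, genes of the oxidative stress response, 1 rose (3.57%, against 3.42% of all genes) and 3 fell (10.7%, against 6.34%). At an unadjusted limma p under 0.05, 3 were higher and 9 lower. Gsta3, a glutathione transferase, fell by 1.599, Cat, catalase, fell by 1.05, and Gclc, of glutathione synthesis, fell by 0.95, while Txnrd1, thioredoxin reductase, rose by 0.79. The Txnrd1 rise was not called without 20 h liver A or B. A second Cat probe set did not fall. It read 7.39, 7.44, 7.44 and 7.40 at 0 h and 7.44, 7.49, 7.65 and 7.54 at 20 h. Of 30 cytosolic and mitochondrial chaperones 3 rose (10%, against 3.42% of all genes), Hsp90aa1 by 1.20, Hspb8 by 1.10 and Pfdn2 by 0.40. The Pfdn2 call was lost in 3 omissions of single livers, while those of Hsp90aa1 and Hspb8 held. Of 47 endoplasmic reticulum chaperone and translocon genes none was called in limma, with 5 higher and 3 lower at an unadjusted p under 0.05. Hspa5, the main chaperone of that compartment, read 10.03, 10.22, 9.58 and 9.89 at 0 h and 11.23, 11.09, 10.14 and 10.24 at 20 h, a difference of 0.75 (adjusted p = 0.206) in overlapping groups.

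No broad change of cell cycle genes was called at 20 h. Among 17 G1 genes and 35 mitosis genes none was called in limma, and at an unadjusted p under 0.05 1 G1 gene was higher and 1 mitosis gene lower. The medians of the 2 lists were 0.00 and -0.01. Ccnd1, cyclin D1, read 6.92, 7.72, 6.72 and 7.44 at 0 h and 7.01, 7.39, 6.77 and 7.997 at 20 h in its brighter probe set, which overlapped. Cdk1 and Mki67, markers of cycling cells, had differences of -0.06 and -0.01. Pcna, the replication clamp, read 6.15, 6.41, 6.36 and 6.15 at 0 h and 6.84, 7.04, 6.71 and 6.66 at 20 h. Its groups did not overlap, and the difference of 0.55 did not pass (adjusted p = 0.0871).

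Of 43 DNA replication genes 1 rose (2.33%) and 2 fell (4.65%), both shares below those of all genes (3.42% and 6.34%). Rrm2, the regulated subunit of ribonucleotide reductase, read 4.45, 4.33, 4.53 and 4.31 at 0 h and 5.32, 6.15, 4.74 and 5.13 at 20 h. Every 20 h liver exceeded every 0 h liver, and Rrm2 rose by 0.93 (SE 0.28, adjusted p = 0.0337; without 20 h liver B, adjusted p = 0.189). Mcm10, a DNA replication factor, and Tk1, thymidine kinase, fell by 1.29 and 0.74. No gene of the list was called without 20 h liver A or B.

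Targets of p53, which is activated where ribosome assembly fails, were not called either. Of 22 tested none passed in limma, with 2 higher and 3 lower at an unadjusted p under 0.05, and the median was -0.08. Cdkn1a, the cell cycle inhibitor p21, read 8.16, 8.08, 7.63 and 7.86 at 0 h and 9.08, 9.13, 9.25 and 8.13 at 20 h. Livers A, B and C lay above the 0 h range and D did not, and the difference of 0.96 (SE 0.42) did not pass (adjusted p = 0.155). A second Cdkn1a probe set had a difference of 0.79 without overlap (adjusted p = 0.161). Mdm2 and Ccng1, both p53 targets, had differences of 0.15 and 0.02. Both groups carried the deletion, so any p53 response already present at 0 h does not show in this comparison.

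**Figure D4:**
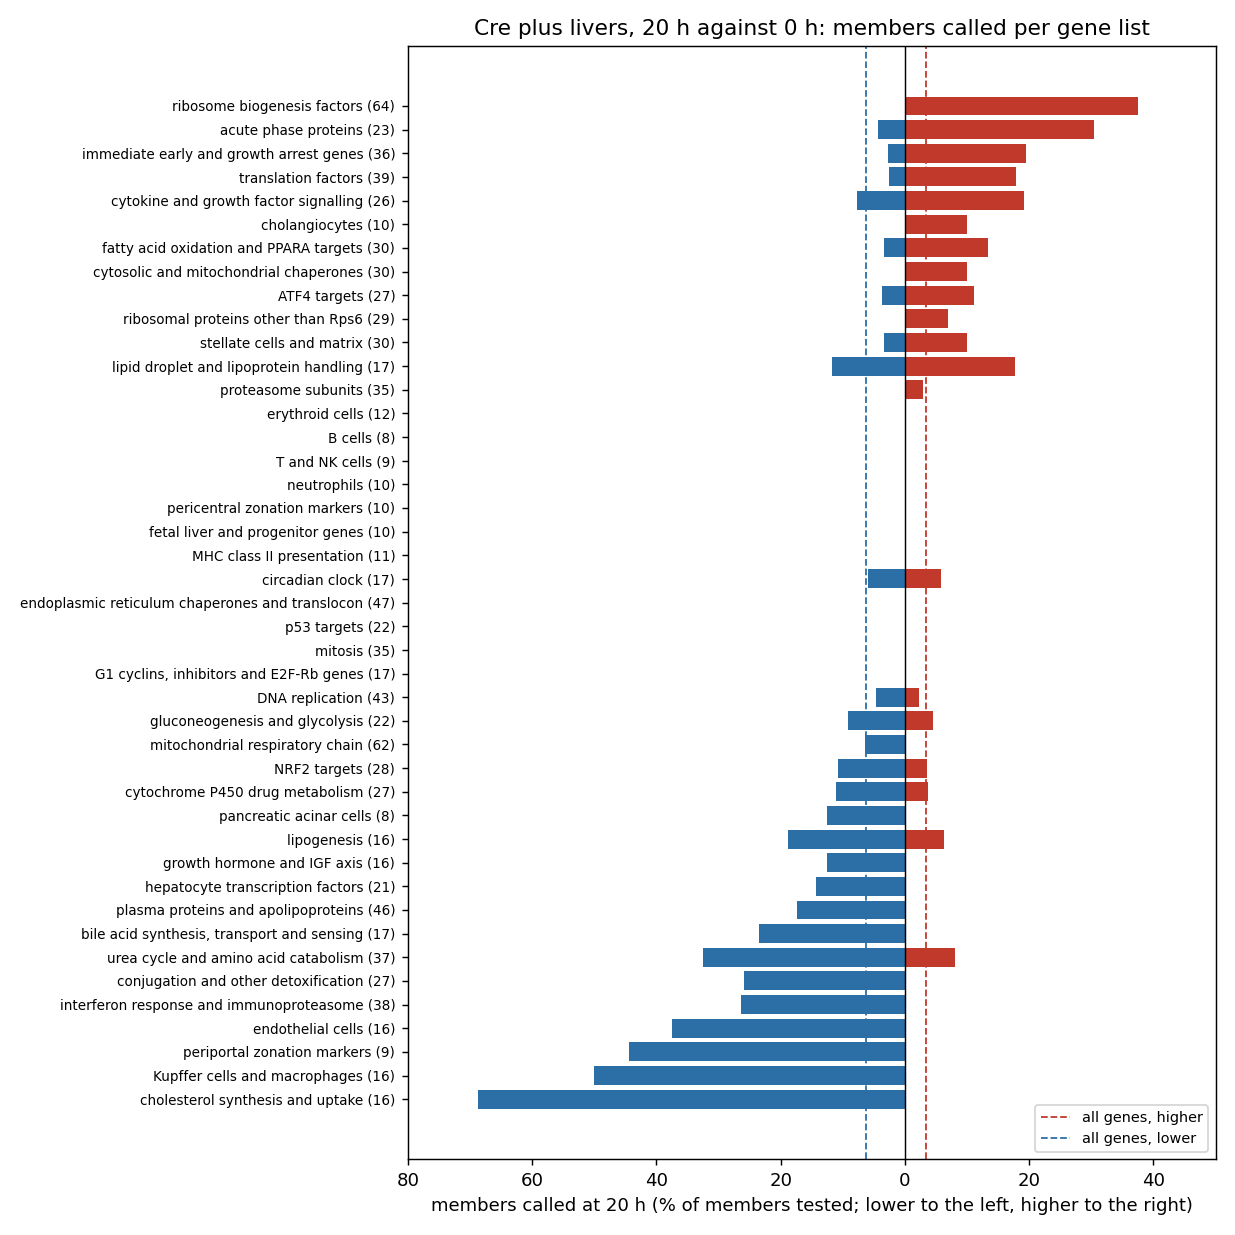
Share of the tested members of each gene list with 8 or more genes tested (number in brackets) called higher (right, red) or lower (left, blue) at 20 h in Cre plus livers, in percent, with dashed lines at the shares over all 6786 genes. Of the lists plotted, cholesterol synthesis has the largest share lower (11 of 16) and ribosome biogenesis the largest share higher (24 of 64), while mitosis, G1 and p53 lists have none.

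Interferon response genes fell between 0 h and 20 h. Of 38 tested 10 fell (26.3%, against 6.34% of all genes) and none rose in limma. At an unadjusted limma p under 0.05, 20 were lower and 0 higher. The difference was negative in 35, and the median was -0.55. Ifit1, an antiviral RNA-binding protein, read 6.67, 6.70, 5.93 and 7.74 at 0 h and 4.53, 5.30, 5.38 and 5.21 at 20 h, and fell by 1.65 (SE 0.48, adjusted p = 0.0298). Ifi47, a GTPase induced by interferon gamma, read 5.82, 6.03, 5.66 and 6.44 at 0 h and 4.59, 4.79, 4.75 and 4.80 at 20 h, and fell by 1.254 (SE 0.25, adjusted p = 0.00269). For both genes 0 h liver D was the highest of all 8 livers.

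The related GTPase Irgm2 fell by 1.22, and the immunoproteasome subunits Psmb9 and Psmb8 by 1.07 and 0.86. Ifit3 fell by 1.16, and Isg15, a ubiquitin-like modifier, had a difference of -0.86 that did not pass (adjusted p = 0.262). The count of 10 was 4 without 20 h liver A or B, 15 without C or D, and 5 to 9 without single 0 h livers. Since the deletion was induced through interferon, the 0 h level is that of a liver once exposed to it; how much of that induction remained at 0 h was not tested.

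The core of interferon response elements, the letters TTTC, 2 unspecified bases and TTTC searched on both strands, lay in 10 of 39 windows of 250 bases from the 31 list members in the RefSeq table (25.6%), against 2.98% of all windows. The windows of 2 genes that fell are shown, with the matches in capitals starting 104 and 85 bases before the start of Ifit1 and 156 and 122 before that of Ifit3.
Ifit1, chr19:34640739-34640888, plus strand: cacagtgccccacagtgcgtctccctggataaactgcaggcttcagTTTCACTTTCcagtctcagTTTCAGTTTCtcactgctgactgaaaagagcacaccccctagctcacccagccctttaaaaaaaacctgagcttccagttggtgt
Ifit3, chr19:34583349-34583528, plus strand: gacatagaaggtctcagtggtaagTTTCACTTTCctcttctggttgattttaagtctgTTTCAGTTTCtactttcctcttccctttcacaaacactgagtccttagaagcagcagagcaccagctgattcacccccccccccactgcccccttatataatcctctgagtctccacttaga

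Markers of Kupffer cells and other macrophages were lower in all 16 members tested, and 8 fell (50%, against 6.34% of all genes). The summed linear value of the markers was 3060 to 4270 in the 0 h livers and 1910 to 2730 in the 20 h livers, where liver C was the highest. Clec4f, a lectin of Kupffer cells, read 8.60, 8.01, 7.75 and 7.97 at 0 h and 7.03, 7.09, 7.54 and 7.14 at 20 h, and fell by 0.88 (SE 0.22, adjusted p = 0.0140; without 20 h liver A, adjusted p = 0.0688). C1qc, of the complement starter C1q, fell by 0.72 (SE 0.16, adjusted p = 0.00653) and Mpeg1, a pore-forming macrophage protein, by 0.92. Tyrobp, an adaptor of myeloid receptors, and Csf1r, the receptor that sustains macrophages, fell by 0.63 and 0.65. The count was 2 without 20 h liver A or B, 8 without C and 7 without D, and 3 to 7 without single 0 h livers. The share of the interferon and Saa3 decreases that goes with the macrophage markers was not tested.

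Endothelial markers fell in 6 of 16 members (37.5%, against 6.34% of all genes). Kdr, the main VEGF receptor, read 6.09, 6.26, 6.32 and 6.29 at 0 h and 5.62, 5.62, 5.85 and 5.77 at 20 h, and fell by 0.53 (SE 0.08, adjusted p = 3.50e-04), and Cldn5, of endothelial tight junctions, fell by 0.60. The count of 6 was 3 without 20 h liver B. Of 30 stellate cell and matrix genes 3 rose (10%, against 3.42% of all genes) and 1 fell (3.33%, against 6.34%). Ccn2, a matricellular growth factor, rose by 2.09, Col4a1 by 1.17 and Timp3 by 0.95, and Col6a1 fell by 0.26. No member of that list was called higher without 20 h liver A or B or without 0 h liver C or D. Thbd, thrombomodulin of endothelium, rose by 2.34 (SE 0.40, adjusted p = 9.61e-04). Of 10 bile duct cell markers 1 rose (10%, against 3.42% of all genes), Krt8, an epithelial keratin, by 1.07. Its call was lost in 7 of 8 omissions of single livers and within PHX3. The summed linear value of these markers was 1980 to 2500 at 0 h, 2790 to 3730 in 20 h livers A to C and 5620 in liver D. Liver D was also apart for Krt18 (11.18 against 9.88 to 9.96). The sum weighs bright members most and includes Krt8 and Krt18, epithelial keratins not particular to bile duct cells. A change of bile duct cells can therefore not be read from it. Markers of neutrophils (10), T and NK cells (9), B cells (8) and platelets (5) had no member called in limma, with 1, 1, 0 and 0 at an unadjusted p under 0.05.

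Many Cre plus calls were also made in Cre minus livers at the same times, which are other samples. There 682 probe sets were called (7.37%; 3.33% higher and 4.04% lower), and 420 were called in both genotypes, 50.1% of the Cre plus calls and 61.6% of the Cre minus calls. None was called in opposite directions, and 832 of the 839 Cre plus calls had the same sign in Cre minus livers. The interaction, the Cre plus difference minus the Cre minus difference, was called for 0 of 9249 probe sets in limma (0%), with a lowest adjusted p of 0.281. At an unadjusted limma p under 0.05 there were 132, fewer than the 462 expected by chance alone. The reason for this shortfall was not tested. A difference between the genotypes in the 20 h change was therefore not detected with 4 livers a group. This does not show that the changes were equal.

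The sterol list had a median of -1.39 with Cre and -1.57 without it, with 11 and 12 genes lower. Ribosome biogenesis had medians of 0.39 and 0.35, with 24 and 16 genes higher. The Kupffer list had -0.59 and -0.20, with 8 and 1 lower. For 4 of its 16 members the interaction had an unadjusted p under 0.05, and for none an adjusted one. Tyrobp had -0.63 with Cre and -0.06 without it, an interaction of -0.57 (SE 0.21, unadjusted p = 0.0109).

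The lowest p for the interaction was that of Notch1 (its brighter probe set), chosen after its values were seen. With Cre, it read 8.05, 7.80, 7.58 and 7.75 at 0 h and 7.01, 6.996, 6.81 and 7.19 at 20 h. In Cre minus livers it read 7.04, 7.02, 6.84 and 6.94 at 0 h and 6.71, 6.87, 6.81 and 6.88 at 20 h. Cre plus livers at 0 h were thus the ones apart, and the 20 h livers of that genotype lay near the Cre minus range. The fall was 0.79 in Cre plus livers (SE 0.09, adjusted p = 5.86e-06) against a difference of -0.14 in Cre minus livers, an interaction of -0.65 (SE 0.13, unadjusted p = 3.04e-05, adjusted p = 0.281). A dimmer Notch1 probe set had a Cre plus difference of -0.26 that did not pass.

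Lpin1 and Gclc, the latter the catalytic subunit for glutathione synthesis, had interactions with low unadjusted p that did not pass. Lpin1 rose by 2.16 in Cre plus livers and had a difference of 0.48 in Cre minus livers (limma interaction, unadjusted p = 0.035). Gclc fell by 0.95 in Cre plus livers and had a difference of 0.17 in Cre minus livers (limma interaction -1.12, unadjusted p = 0.00489). Tat and Rrm2, described above, had Cre minus differences of 0.34 and 0.04, with unadjusted interaction p of 0.0140 and 0.0319. None of these 4 interactions passed after adjustment over all probe sets.

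**Figure D5:**
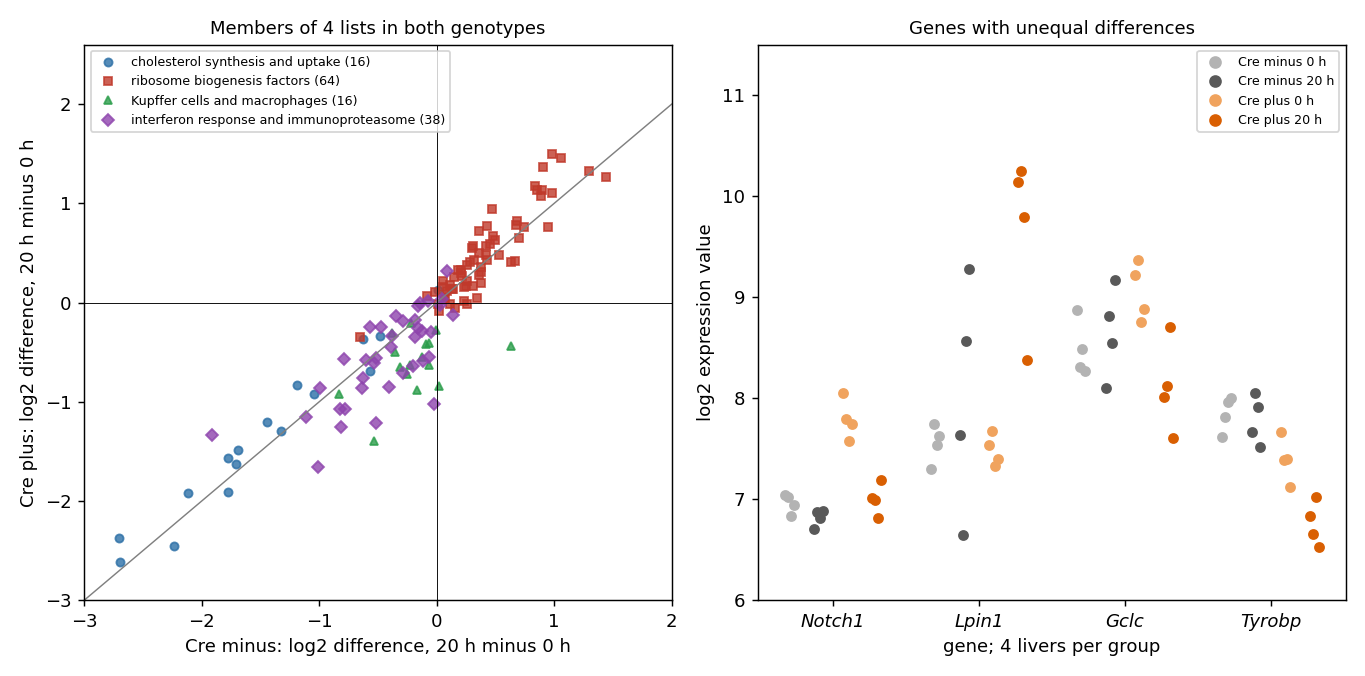
Left, log2 difference at 20 h against 0 h in Cre minus (horizontal axis) and Cre plus livers (vertical axis) for members of 4 lists, with the line of equal change. Right, log2 values of 4 genes in each of the 4 livers of both genotypes at both times, where Notch1 in Cre plus livers at 0 h (7.58 to 8.05) lies above all other livers shown for that gene.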

How the data were processed

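RNA of 32 livers was read on 1-colour Affymetrix MG-U74Av2 arrays. The deposited values were made by the authors with RMA, per the submitters' processing notes, and their range shows log2 values; the RMA version, and whether all arrays were normalized together, are absent from the sources used. Groups and batches came from the sample labels. Control probe sets were removed, and 9249 of 12422 others, which on 3 or more arrays exceeded that array's 30th percentile, entered 1 fit in limma (version 3.58.1, R 4.3.3; 8 groups plus batch, all 32 arrays, lmFit and eBayes). Adjusted p-values are Benjamini-Hochberg values over all probe sets of a comparison, with 0.05 as the threshold. Standard errors are those of the fit. No block for the replicate letter was used.

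The members and gene lists were chosen with earlier results of these data known. Genes were named from probe sets with 1 symbol: core genes, the 15 highest and 15 lowest called differences with 1 sign in both batches, and up to 5 members of each list, called ones first, with members that define a list by role; further list members are given as examples chosen after their values were seen. A gene's list value came from its probe set of highest mean. On simulated data with 9249 probe sets, 95% of log2 changes of 1 and 100% of changes of 2 were recovered, with 10 false calls. Recovery was not tested for changes that differ between the livers of a group, as many did at 20 h. In the measured values, no endoplasmic reticulum chaperone or translocon gene was called, although the highest difference in that list was 1.25. The number of arrays limits the precision. Alternatives covered the arrays fitted, batch, filters, scaling, weights, spread model, replicate block and omission of each liver.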

Additional observations from a re-analysis of the deposited data

Results flagged for a closer look

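Each result here had 1 liver farther from the other 3 of its group than the 95% critical value of Dixon's gap test allows. The test marked 26 of 484 groups tested, and chance marks about 1 in 20, a similar share. The marks alone thus do not show that a liver differed. Among 20 h livers C stood apart 7 times, D 6 and B 3, and among 0 h livers D 5 times, A 3 and C 2.

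In 20 h liver C the acute phase genes Lcn2 (8.421, others 12.24 to 12.41) and Saa2 (11.41, others 13.47 to 13.83) were low, as was Foxa3, a hepatocyte transcription factor (4.776, others 7.159 to 7.532). The same liver was high for Myc (6.625, others 4.275 to 4.571), Btg2, an early antiproliferative gene (9.969, others 8.365 to 8.409), Hmox1, heme oxygenase (10.87, others 8.944 to 9.238), and the B cell marker Cd22 (5.559, others 5.196 to 5.248). In 20 h liver D Mt2 (11.53), Mt1 (11.94), Cdkn1a (8.13) and Cebpb (10.17) were low, while Tsc22d1 (7.798, others 5.979 to 6.181) and the keratin Krt18 (11.18, others 9.876 to 9.958) were high. In 20 h liver B Cdkn2c (5.237), Peg3 (5.175) and Prss2 (4.571) were low.

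Among 0 h livers C was low for Hsd3b5 (7.537, others 9.808 to 10.22) and Psmb9 (7.841). Liver D was low for Cks2 (6.902), Hal (10.19) and Bhmt (12.25) and high for H2-DMb1 (7.558) and Prtn3 (6.844). Liver A was low for Igfals (9.173) and high for Cat (10.25) and Cebpa (11.59).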

How the results depend on the processing

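The 839 Cre plus calls kept their sign in each alternative where they were fitted. The alternatives used the livers on which the calls were chosen, so this is not separate support. Without single livers 265 to 1118 probe sets were called (121 to 498 higher, 144 to 628 lower), with 265 without 20 h liver A and 1118 without C. Within PHX2, 2 livers a group, 1 was called (1 higher, 0 lower). Within PHX3, also 2 livers a group, 1017 were called (512 higher, 505 lower). Array weights gave 2662 calls (1188 higher, 1474 lower). With only the groups compared 534 were higher. Without 3 arrays of other groups whose mean correlation with their group was under 0.95, an alternative chosen after seeing the data, 1334 were called (570 higher). For the interaction, array weights called 1 probe set lower, Notch1 (-0.71, adjusted p = 0.0264), PHX3 alone called 1 higher, Snhg1 (1.79, adjusted p = 0.0343), and leaving out single livers called 0. In Cre minus livers 682 calls became 1469 with only the groups compared (786 higher, 683 lower), 89 within PHX2 (28 and 61), 243 within PHX3 (150 and 93), 2095 with array weights (1058 and 1037) and 1034 without the 3 arrays (523 higher). Without single livers they were 331 to 768 (132 to 361 higher, 194 to 407 lower). The cause of these shifts was not tested. Fits within a batch also had fewer livers. Other filters, scalings, spread models and the fit without batch gave 635 to 853 Cre plus calls. With the replicate block 820 were called (326 higher, 494 lower), 772 of them among the 839. Cre plus livers of the same letter correlated at 0.117 (A), 0.188 (B), -0.307 (C) and 0.105 (D) in their deviations from group and batch. With so few livers a group, these values cannot decide whether the letters pair livers. Signal near background limits the dimmest genes.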
